A study of Mus musculus with 59 samples.

Results

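The comparison described here is that of 2 knockout effects in the mouse epiblast, the effect of losing *Ehmt2* and the effect of losing *Ezh2*, read as a difference of differences. Its members are the 12 count files of replicates 1 to 3, out of 59 samples in the series and 14 samples with RNA-seq counts, and it asks whether a transcript responded differently to the loss of one enzyme than to the loss of the other. Each library came from a single epiblast dissected at E6.25 on a mixed background, from which 750 pg of RNA was amplified. The labels give 4 groups of 3 epiblasts each: *Ehmt2* controls (G9a+/+), *Ehmt2* knockouts (G9a-/-), *Ezh2* controls (Ezh+/+) and *Ezh2* knockouts (Ezh-/-). The methods of the study describe the controls more widely, as wild type or heterozygous littermates of intercrossed heterozygotes, so a control may carry 1 deleted allele. The methods also state that the *Ehmt2* line was kept on the ΔPE-Pou5f1-EGFP reporter line, which is not stated for the *Ezh2* line, so cross, reporter and litter cannot be told apart in the controls. Both deletions are constitutive, so the extraembryonic tissues around the epiblast lacked the enzyme too. Replicate 4 of the *Ehmt2* cross, 1 control and 1 knockout, lies outside the comparison and is used below as values that no fit of the 12 libraries had seen.

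G9a, the product of *Ehmt2*, works with its partner GLP to place mono- and dimethylation on lysine 9 of histone H3 (H3K9me2), a mark of silent chromatin in euchromatic regions. EZH2 is the catalytic subunit of Polycomb repressive complex 2, which trimethylates lysine 27 of histone H3 (H3K27me3), a mark best known at promoters of developmental regulators. Around implantation, as the epiblast leaves naive pluripotency, H3K9me2 accumulates and H3K27me3 is redistributed. Germline genes become silenced then by DNA methylation and repressive chromatin. Mouse embryos that lack either enzyme die during gestation.

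Of the genes whose 2 effects differed, 5 are shown here with the RefSeq promoter nearest to the 5′ end of the counted transcript (GRCm38.p6), 250 bases before the start site and 50 after it. *Asz1* (chr6:18109012-18109311, minus strand), *Nlrp4c* (chr7:6044911-6045210, plus strand) and *Rpl10l* (chr12:66284352-66284651, minus strand) had a higher change after loss of G9a than after loss of EZH2, and *Nkx1-2* (chr7:132599588-132599887, minus strand) and *Ildr2* (chr1:166253889-166254188, plus strand) had the reverse. Each is written 5′ to 3′ on the strand of the gene, and the capitals mark CpG dinucleotides and the E-box CACGTG.
Asz1: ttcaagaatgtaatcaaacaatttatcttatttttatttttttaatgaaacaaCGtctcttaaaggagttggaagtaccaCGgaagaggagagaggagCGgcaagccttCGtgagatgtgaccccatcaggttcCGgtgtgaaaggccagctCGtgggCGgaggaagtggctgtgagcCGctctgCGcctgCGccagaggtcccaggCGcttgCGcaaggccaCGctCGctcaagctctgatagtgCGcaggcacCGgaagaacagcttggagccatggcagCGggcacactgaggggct
Nlrp4c: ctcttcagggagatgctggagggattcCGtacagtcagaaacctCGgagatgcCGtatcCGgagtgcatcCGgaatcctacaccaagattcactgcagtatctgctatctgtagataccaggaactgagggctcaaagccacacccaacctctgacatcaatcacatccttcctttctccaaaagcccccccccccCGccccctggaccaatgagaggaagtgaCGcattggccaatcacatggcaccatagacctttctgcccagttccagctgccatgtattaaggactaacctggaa
Rpl10l: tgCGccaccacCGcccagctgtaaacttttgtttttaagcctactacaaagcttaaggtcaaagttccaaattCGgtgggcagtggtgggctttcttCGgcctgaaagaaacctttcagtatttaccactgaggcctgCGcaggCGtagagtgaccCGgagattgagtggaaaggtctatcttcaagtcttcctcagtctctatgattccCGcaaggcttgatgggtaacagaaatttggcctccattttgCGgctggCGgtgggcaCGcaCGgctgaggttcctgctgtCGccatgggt
Nkx1-2: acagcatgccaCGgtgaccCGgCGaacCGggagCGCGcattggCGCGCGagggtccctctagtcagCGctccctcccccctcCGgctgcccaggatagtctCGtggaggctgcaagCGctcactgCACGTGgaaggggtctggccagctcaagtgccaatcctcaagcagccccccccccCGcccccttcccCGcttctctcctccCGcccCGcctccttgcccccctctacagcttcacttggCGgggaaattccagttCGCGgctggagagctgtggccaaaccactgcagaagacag
Ildr2: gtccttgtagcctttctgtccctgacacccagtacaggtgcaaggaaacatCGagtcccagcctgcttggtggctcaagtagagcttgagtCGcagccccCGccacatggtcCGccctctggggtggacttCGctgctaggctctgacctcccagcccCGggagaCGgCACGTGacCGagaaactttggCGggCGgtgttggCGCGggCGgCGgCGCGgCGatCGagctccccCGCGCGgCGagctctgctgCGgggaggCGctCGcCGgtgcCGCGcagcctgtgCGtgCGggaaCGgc
CpG dinucleotides numbered 17 in the *Asz1*, 7 in the *Nlrp4c* and 13 in the *Rpl10l* window, against 21 for *Nkx1-2* and 32 for *Ildr2*. Other called genes did not follow that order, with 31 for *Ezh2* and 12 for *1700029P11Rik* in the first direction and 10 for *Magel2*, 17 for *Crabp1* and 49 for *Cnksr2* in the second. The median over the 10728 tested genes with such a promoter was 21. The E-box, searched on both strands, occurred in the windows of *Nkx1-2* and *Ildr2*, in none of the other 8 called genes with a promoter, and in 10.1% of those 10728 promoters, and the E2F motif GGCGGGAA, searched likewise, occurred among the called genes in that of *Cnksr2* and in 4.31% of all. Since 10728 of the 15034 tested genes had an entry, sets of promoters were not compared.

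The 12 libraries held between 30161171 and 45007990 counts over all transcripts, and between 12495474 and 18300357 over the single most counted transcript of each gene, on which the analysis was run. At that depth 3 counts equal 0.163 to 0.231 CPM, the counts of a gene scaled to a library of standard size, which covers counting error only. The deleted genes fell in their own cross. *Ehmt2* had 26.3, 28.4 and 40.0 CPM in its controls against 12.0, 11.4 and 8.16 CPM in its knockouts, and 46.2, 41.4 and 42.0 CPM against 36.1, 55.5 and 44.3 CPM in the *Ezh2* cross. *Ezh2* had 131, 165 and 275 CPM in its controls against 28.3, 29.1 and 39.9 CPM in its knockouts, and stayed between 197 and 259 CPM in the 6 *Ehmt2* libraries. Transcripts that remained in the knockouts were not examined for the deleted exons.

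Several libraries differed in ways that the genotype does not name. The 4 Y-linked genes measured summed to 0.324 to 0.799 CPM in the 3 *Ehmt2* knockouts and to 146, 177 and 189 CPM in the 3 *Ezh2* knockouts. Among the controls they were present in *Ehmt2* control 2 (138 CPM) and *Ezh2* control 2 (173 CPM) and near 0 in the other 4. The knockouts of one cross were therefore all without Y-linked transcripts and those of the other all with them, so results below are also given with controls of matching Y-linked state. Visceral endoderm markers, 20 genes of the layer that surrounds the epiblast, summed to 7280 CPM in *Ezh2* knockout 1 and 3502 CPM in *Ezh2* control 2 against 96.3 to 257 CPM in the other 10 libraries. Markers of extraembryonic ectoderm, the trophoblast tissue that abuts the epiblast, stood higher in most knockouts than in the controls of both crosses. Their mean level over 20 markers, as log2(CPM + 0.5), was 1.50 to 1.81 in the *Ehmt2* controls and 4.55, 3.31 and 3.46 in the *Ehmt2* knockouts, and 1.07 to 1.57 in the *Ezh2* controls and 2.90, 2.44 and 1.50 in the *Ezh2* knockouts. As summed CPM the groups overlapped in both crosses. The sums were 142, 400 and 234 against 1257, 397 and 472 CPM in *Ehmt2* controls and knockouts. In the *Ezh2* cross they were 266, 318 and 232 against 358, 451 and 249 CPM. The epiblast itself was present throughout, with 2492 to 3583 CPM of summed core pluripotency transcripts per library.

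**Figure D1:**
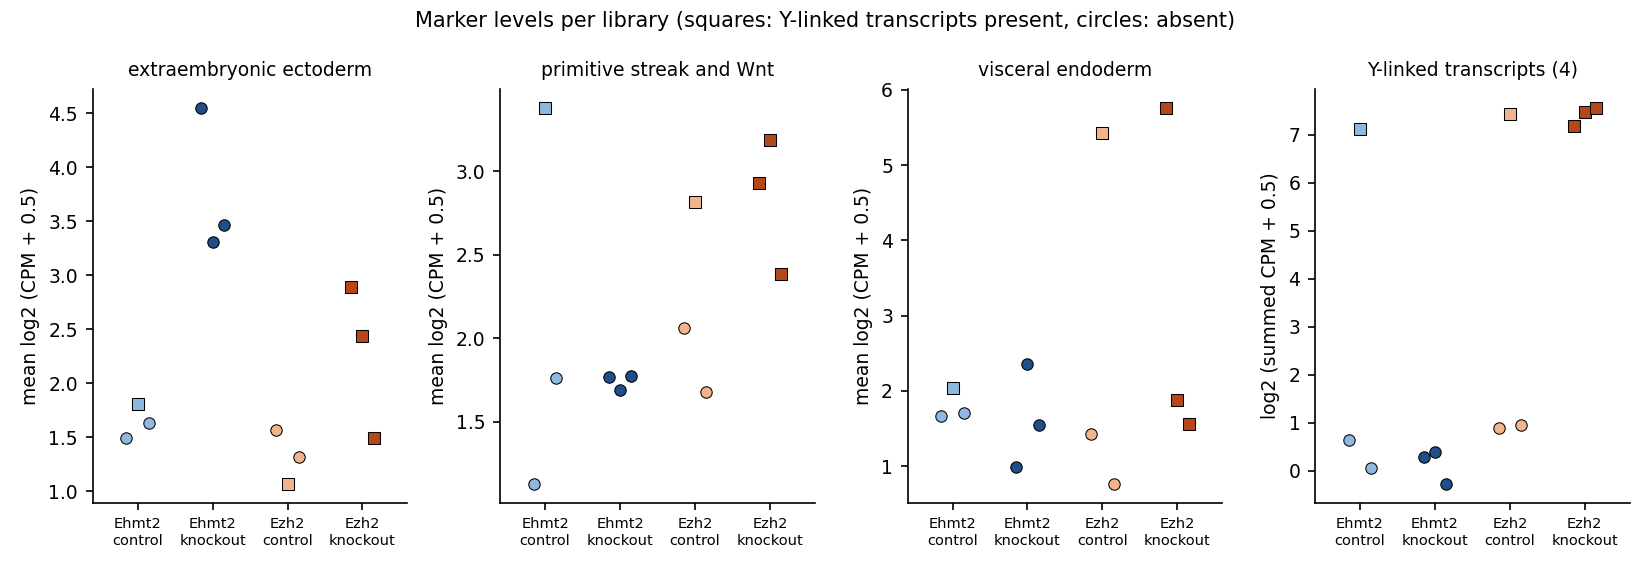
Levels per library of 3 marker lists, as the mean of log2(CPM + 0.5) over the list, and of 4 Y-linked transcripts, as log2 of their summed CPM + 0.5, in 3 libraries of each of the 4 groups. Extraembryonic ectoderm markers were highest in the *Ehmt2* knockouts, visceral endoderm markers stood out in *Ezh2* control 2 and *Ezh2* knockout 1, and Y-linked transcripts were present in 5 libraries (squares), among them all 3 *Ezh2* knockouts and none of the *Ehmt2* knockouts.

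Across 15034 genes that passed the filter on low counts, 14 had knockout effects that differed between the crosses, at an edgeR adjusted p under 0.05 and a difference beyond 1.4 on the log2 scale. In 6 of them (0.0399% of all genes tested) the change was higher with the loss of *Ehmt2*, and in 8 (0.0532%) it was higher with the loss of *Ezh2*. Without adjustment these numbers were 269 (1.79%) and 408 (2.71%). The *Ehmt2* effect alone had 97 genes called higher (0.645%) and 13 lower (0.0865%). The *Ezh2* effect alone had 1 gene called lower, *Ezh2* itself (0.00665%), and 0 called higher with edgeR, where 305 (2.03%) were higher and 79 (0.525%) lower without adjustment and DESeq2 called 41 higher. Between the control groups of the crosses 4 genes were called, all lower in the *Ehmt2* controls (0.0266%). Libraries of the same group were not equally alike in the crosses. A chi-square per degree of freedom between their counts was 17.1 to 22.9 in the *Ehmt2* controls and 19.2 to 32.1 in the *Ehmt2* knockouts, against 24.7 to 33.2 and 29.9 to 46.3 in the *Ezh2* controls and knockouts. The 2 effects had a Pearson correlation of 0.11 over the 15034 genes, given as a description, since genes share libraries and are not replicates. The calls depended on single libraries. Without *Ezh2* knockout 2 none of the 14 genes passed (edgeR adjusted p from 0.0565 to 0.13). Without *Ehmt2* knockout 1, 3 passed, and without 1 of the other 10 libraries 4 to 9 did. Of these 12 fits *Rpl10l*, *1700029P11Rik*, *Ptprd* and *Magel2* passed in 1, *Aim2* in 2 and *Asz1* in 3.

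**Figure D2:**
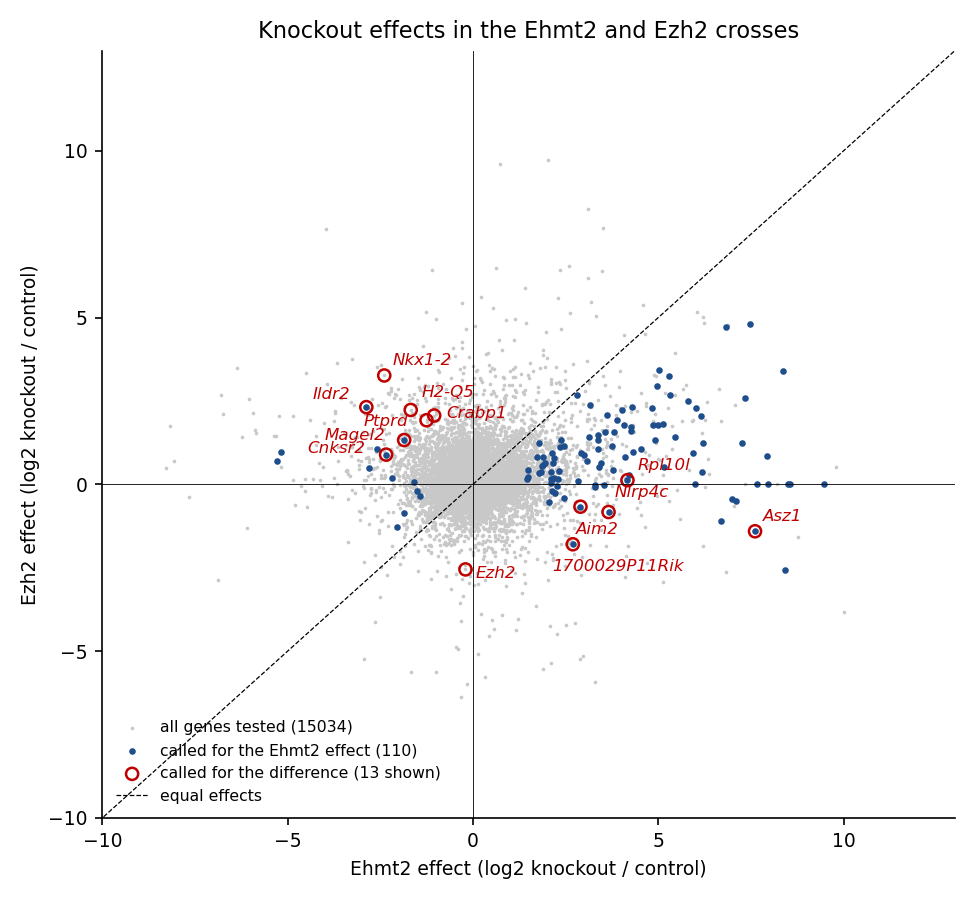
Knockout effects of 15034 genes on the log2 scale, *Ehmt2* knockout over control on the horizontal axis and *Ezh2* knockout over control on the vertical axis, with genes called for the *Ehmt2* effect in blue and 13 of the 14 genes called for the difference ringed. Of the 110 genes called for the *Ehmt2* effect 97 lie to the right of 0 and 13 to the left, and the ringed genes lie away from the dashed line of equal effects on both sides.

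The genes higher with the loss of *Ehmt2* included transcripts normally restricted to germ cells. *Asz1*, a germ cell gene of the piRNA pathway (ENSMUSG00000010796, GRCm38 chr6:18050964-18109061), gave 0.251, 0.379 and 0.135 CPM in the *Ehmt2* controls and 59.5, 47.1 and 51.5 CPM in the *Ehmt2* knockouts. In the *Ezh2* cross it had 0, 2.39 and 0.216 CPM in controls and 0.154, 0 and 0.786 CPM in knockouts. Its level in the 3 *Ehmt2* knockouts lay above every other library, the highest of which was *Ezh2* control 2. The difference of the effects was 9.02 on the log2 scale (SE 1.46, edgeR adjusted p = 0.0377), of which 7.61 was the *Ehmt2* effect and −1.41 the *Ezh2* effect, and since the *Ezh2* effect rests on groups near 0 the size of the difference is loose. Without *Ezh2* control 2, which held most of the counts of that cross, it was 6.09 (adjusted p = 0.354).

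*Nlrp4c*, an oocyte-expressed member of the NLR family (chr7:6045161-6105150), had 4.89, 1.46 and 5.75 CPM in the *Ehmt2* controls and 46.3, 53.5 and 52.3 CPM in the knockouts. It moved the other way in the *Ezh2* cross, with 9.95, 9.19 and 14.7 CPM in controls and 6.17, 7.47 and 5.37 CPM in knockouts, and neither cross had overlapping groups. Its difference of 4.49 (SE 0.55, edgeR adjusted p = 0.0142) had the lowest p-value of all genes, and it passed in 11 of the 12 fits that left out a library. *Rpl10l*, a testis-expressed retrogene of the X-linked ribosomal protein gene *Rpl10* (chr12:66283379-66284401), rose from 2.88, 0.976 and 3.58 CPM to 52.2, 38.0 and 43.1 CPM in the *Ehmt2* cross. In the *Ezh2* cross its groups overlapped, with 2.74 to 3.41 CPM in controls and 1.35 to 5.50 CPM in knockouts, and the difference was 4.04 (SE 0.68, edgeR adjusted p = 0.0411). *Nlrp4c* and *Rpl10l* belong to families with close copies, and how reads were shared among these was not examined.

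*Aim2*, a cytosolic sensor of double-stranded DNA (chr1:173350879-173466040), had 11.6, 10.8 and 4.39 CPM in the *Ehmt2* controls and 56.8, 65.4 and 78.6 CPM in the knockouts, against 7.96 to 23.9 CPM and 6.19 to 10.4 CPM in *Ezh2* controls and knockouts. Its difference was 3.57 (SE 0.59, edgeR adjusted p = 0.0378). *1700029P11Rik*, an uncharacterised coding gene on chromosome 15, rose from 1.55 to 2.26 CPM to 9.97 to 15.9 CPM without G9a and was lower without EZH2, at 0.196 to 0.848 CPM against 0.936 to 2.82 CPM. Its difference was 4.49 (SE 0.77, edgeR adjusted p = 0.0435), and no group overlapped its control. *Ezh2* itself was the remaining gene of this direction, with a difference of 2.35 (SE 0.31, edgeR adjusted p = 0.0154) in which the deleted gene is its own readout. *Ehmt2*, its counterpart, had a difference of −1.65 (SE 0.32) that missed the threshold, with an edgeR adjusted p of 0.0883 and an interval from −2.33 to −0.97, and DESeq2 called it (adjusted p = 0.00047). Below the fold threshold, *Cyp51*, an enzyme of cholesterol synthesis, rose from 45.3, 46.6 and 46.1 CPM to 94.7, 82.3 and 104 CPM in the *Ehmt2* cross and had 51.2 to 53.3 and 39.3 to 46.5 CPM in *Ezh2* controls and knockouts. Its difference of 1.27 (SE 0.19) had an edgeR adjusted p of 0.0154.

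The 8 genes of the other direction were each lower in all 3 *Ehmt2* knockouts than in the controls and higher in all 3 *Ezh2* knockouts than in theirs. Over all genes tested, 0.572% had knockouts apart from controls in both crosses in this direction and 0.446% in the reverse one. *Nkx1-2*, a homeobox gene of the caudal epiblast (chr7:132594878-132599637), had the largest difference among them. Its levels were 3.13, 10.8 and 8.18 CPM in the *Ehmt2* controls and 1.56, 1.60 and 1.04 CPM in the knockouts. In the *Ezh2* cross they were 0.710, 3.76 and 3.09 CPM in controls and 17.7, 20.9 and 34.2 CPM in knockouts. The difference was −5.66 (SE 0.81, edgeR adjusted p = 0.0154), made of −2.39 in the *Ehmt2* and 3.26 in the *Ezh2* cross.

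*Ildr2*, an immunoglobulin-like receptor (chr1:166254139-166316823), had 5.89, 6.61 and 2.23 CPM in the *Ehmt2* controls and 0.639, 0.363 and 0.971 CPM in the knockouts, against 2.98, 3.11 and 6.55 CPM in the *Ezh2* controls and 15.7, 21.6 and 25.7 CPM in the knockouts. With a difference of −5.19 (SE 0.71, edgeR adjusted p = 0.0154) it passed in 10 of the 12 fits without 1 library. *Crabp1*, which encodes a cellular retinoic acid binding protein, was further from its controls in the *Ezh2* cross. Its CPM went from 6.54, 5.28 and 4.46 to 25.4, 23.5 and 19.2 in the *Ezh2* cross and from 8.84, 6.67 and 6.02 to 2.70, 4.87 and 2.85 in the *Ehmt2* cross (difference −3.11, SE 0.46, edgeR adjusted p = 0.0154). *Ptprd*, a receptor-type tyrosine phosphatase, had a like pattern, from 5.47 to 6.00 CPM up to 18.5 to 24.6 CPM without EZH2 and from 4.89 to 6.61 CPM down to 1.23 to 3.92 CPM without G9a (difference −3.18, SE 0.52, edgeR adjusted p = 0.0378).

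*Ildr2*, *Cnksr2* and *Magel2* were also called lower for the *Ehmt2* effect alone. *Cnksr2*, an X-linked scaffold protein of Ras signalling, had 12.0, 12.3 and 16.8 CPM in the *Ehmt2* controls and 4.12, 1.89 and 2.07 CPM in the knockouts, against 12.6 to 19.5 CPM and 21.4 to 34.8 CPM in the *Ezh2* cross (difference −3.24, SE 0.47, edgeR adjusted p = 0.0154). *Magel2*, an imprinted gene of the Prader-Willi region, had 11.1 to 18.5 CPM and 2.65 to 5.67 CPM in the *Ehmt2* cross, and 8.85 to 12.2 CPM and 16.2 to 42.9 CPM in the *Ezh2* cross (difference −3.19, SE 0.54, edgeR adjusted p = 0.0435). *H2-Q5*, a class I gene of the major histocompatibility complex, had 2.70 to 3.51 CPM and 0.710 to 1.23 CPM in the *Ehmt2* cross, and 1.23 to 2.13 CPM and 5.47 to 10.8 CPM in the *Ezh2* cross (difference −3.91, SE 0.67, edgeR adjusted p = 0.0435). It passed in none of the 12 fits without 1 library, its counted transcript is a retained intron of a family of near-identical genes, and it lies 0.49 Mb from *Ehmt2*, where alleles of the mixed background and the deletion cannot be told apart.

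**Figure D3:**
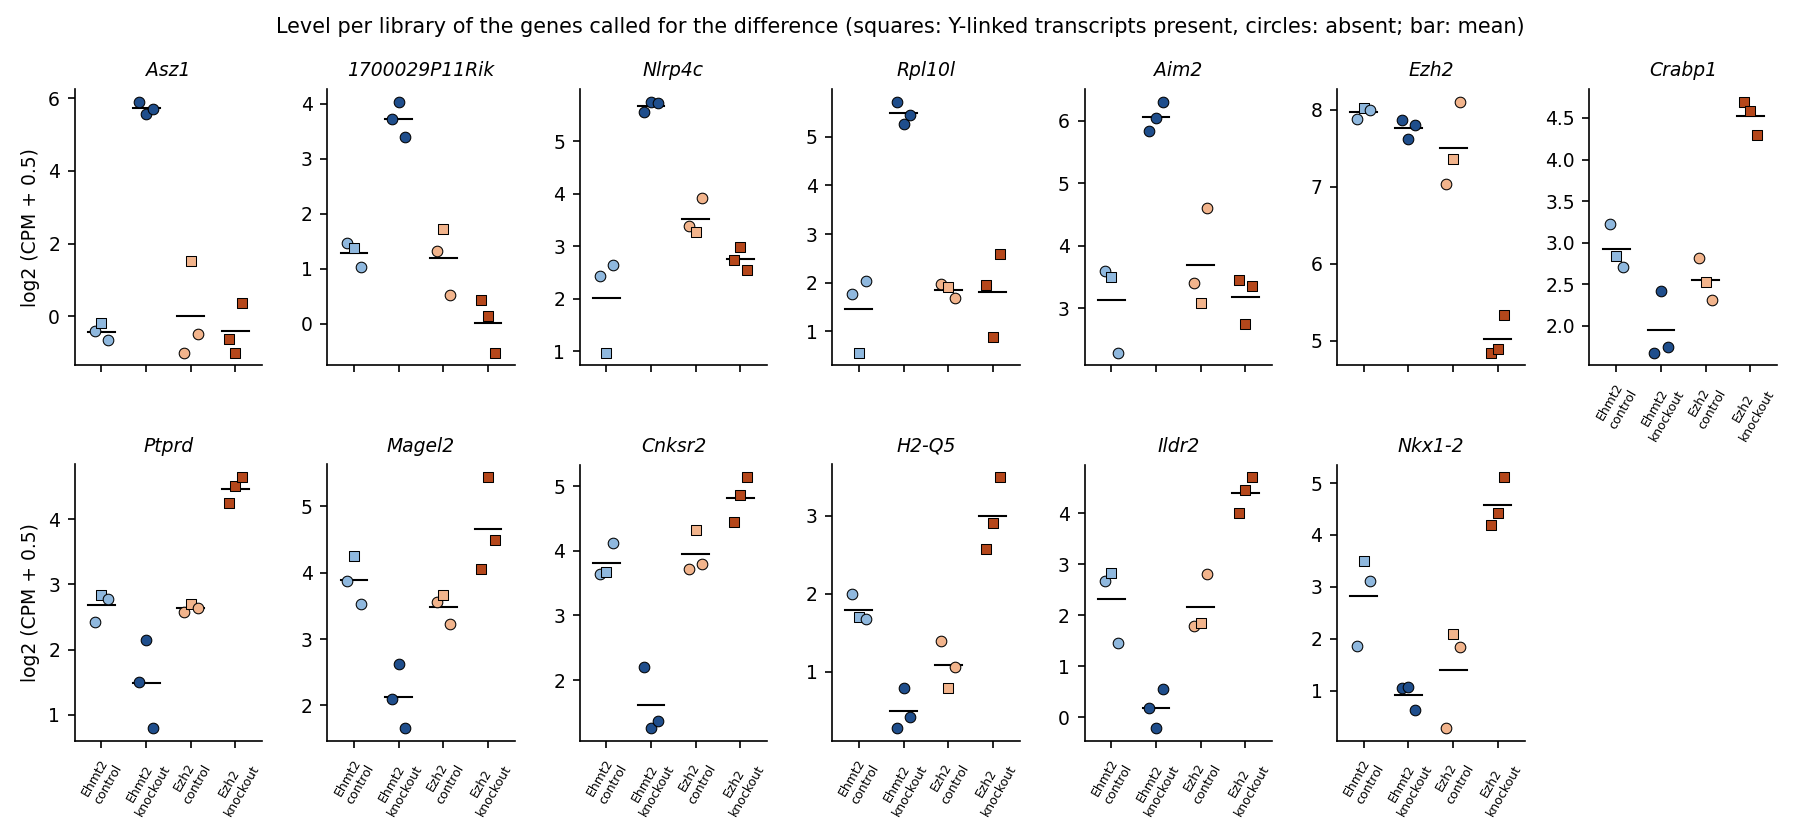
Level of 13 of the 14 genes called for the difference, as log2(CPM + 0.5), in the 3 libraries of each group, with bars at the group means and squares where Y-linked transcripts were present. From *Asz1* to *Aim2* the *Ehmt2* knockouts stand above the other 9 libraries, and from *Crabp1* to *Nkx1-2* the *Ehmt2* knockouts lie below their own controls and the *Ezh2* knockouts above theirs.

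Replicate 4 of the *Ehmt2* cross, control and knockout both with Y-linked transcripts, gave an independent look at the *Ehmt2* side of these differences, with 1 library per genotype and so no replicate check. All 5 genes of the first direction other than *Ezh2* were higher in knockout 4 than in control 4, and all 8 of the second were lower, while 45.8% of the tested genes were higher in knockout 4. *Asz1* had 17.6 CPM against 0, *Nlrp4c* 36.2 against 1.07, *Rpl10l* 49.7 against 4.71, *Aim2* 70.9 against 2.09 and *1700029P11Rik* 7.41 against 0.622 CPM. *Nkx1-2* had 0.263 CPM against 3.29, *Ildr2* 0.0752 against 2.13 and *Ptprd* 0.639 against 6.00 CPM. The gap was small for *H2-Q5* (0.978 against 1.07 CPM) and *Magel2* (8.91 against 10.8 CPM), and with replicate 4 in the fit neither passed (edgeR adjusted p = 0.0981 and 0.101). Of the 97 genes called higher for the *Ehmt2* effect 64 were higher and 24 lower in knockout 4. No further library of the *Ezh2* cross was analysed here.

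Controls of matching Y-linked state were 2 *Ehmt2* controls and *Ezh2* control 2. That *Ezh2* library was also rich in visceral endoderm markers (3502 CPM), so Y-linked state and visceral endoderm content cannot be told apart in this fit. With these controls the 14 differences, which were chosen for their size in the 12 libraries, kept their sign. The values ranged from 10.9 for *Asz1* to −5.34 for *Ildr2*, and 3 genes, *Asz1*, *Nlrp4c* and *Ezh2*, still passed, with edgeR adjusted p up to 0.543 among the other 11. The lone *Ezh2* control is there assumed to vary like the other groups. With the Y-linked level as a covariate, *Asz1* and *Nlrp4c* passed. With the extraembryonic ectoderm level as a covariate, which itself differed between genotypes, the differences again kept their sign and none passed (adjusted p from 0.143 to 0.533). Their sizes were close to those above, for example 10.1 for *Asz1*, 4.57 for *Nlrp4c*, 4.41 for *Rpl10l* and −3.30 for *Cnksr2*. Without both libraries rich in visceral endoderm, 8 of the 14 genes passed and *Asz1*, at 5.79, did not. Whether sex or the surrounding tissues contribute to these differences was not tested beyond these fits.

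**Figure D4:**
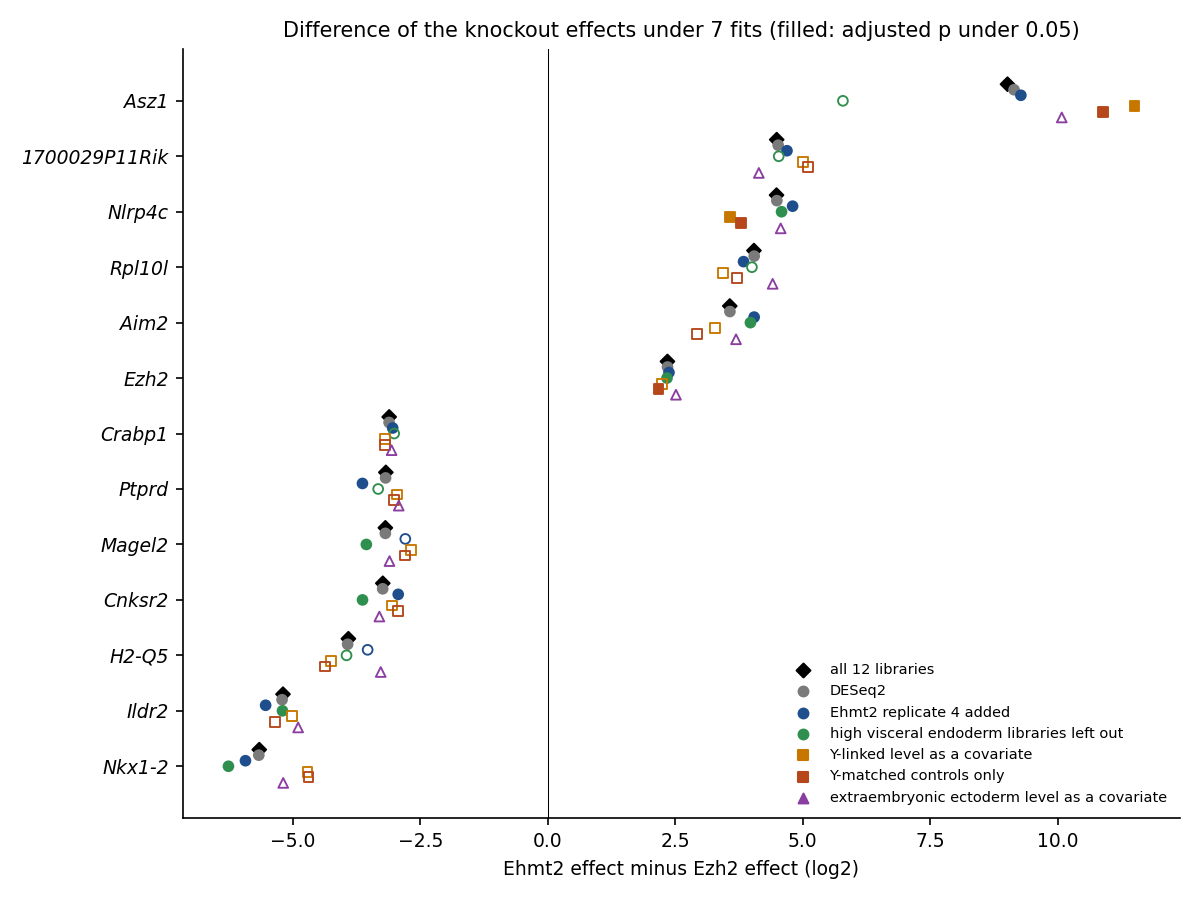
Difference of the *Ehmt2* and *Ezh2* effects (log2) of 13 of the 14 called genes under 7 fits, filled where the edgeR or DESeq2 adjusted p was under 0.05. All points of a gene lie on one side of 0, while most points of the fits for Y-linked state and extraembryonic ectoderm are open.

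The germline lists were read next, since loss of G9a is known to release germ cell genes. Of 26 tested members of the late germ cell and piRNA list (29 listed), 1 was called for the difference, *Asz1*, against 0.0399% of all genes. For the *Ehmt2* effect 5 were called higher, against 0.645% of all genes. Without adjustment 5 members had a higher and 3 a lower difference, against 1.79% and 2.71% of all genes. Among the former, chosen here after their values were seen, *Gtsf1*, a piRNA factor of germ cells, had 8.72 to 13.3 CPM in the *Ehmt2* knockouts and 0.108 to 0.251 CPM in their controls, with 0.0673 to 0.694 CPM in the 6 *Ezh2* libraries (difference 4.97, edgeR adjusted p = 0.127). *Nxf3*, an X-linked RNA export factor, had 21.7 to 39.6 CPM in the *Ehmt2* knockouts and no more than 1.28 CPM in any other library (difference 5.81, adjusted p = 0.0936). *Tex19.1*, which encodes a mammal-specific germ cell protein, had 31.6 to 177 CPM in the *Ehmt2* knockouts and 6.12 to 28.1 CPM elsewhere (difference 3.32, adjusted p = 0.271). Members went both ways, and the list had a median *Ehmt2* effect of 0.71 and a median *Ezh2* effect of 0.69 against −0.01 and 0.01 over all genes.

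*Sohlh2*, a transcription factor of early germ cell differentiation, had 12.9 to 31.7 CPM in the *Ehmt2* knockouts against 0.379 to 5.70 CPM in the controls, and 3.47 to 7.14 CPM against 1.92 to 3.69 CPM in the *Ezh2* cross. Its difference of 1.95 did not pass (edgeR adjusted p = 0.551, interval −0.04 to 3.95). Of 11 tested paralogs of housekeeping genes expressed in testis (18 listed), 1 was called, *Rpl10l*, against 0.0399% of all genes. Their median difference was 1.04, with 8 above 0, where 7524 of 15034 were over all genes. For the *Ehmt2* effect 3 were called higher, against 0.645% of all genes. Of 9 tested oocyte genes (18 with a listed transcript), 1 was called, *Nlrp4c*, and the median difference of 1.27 became −0.21 with Y-matched controls. *Zp2*, a zona pellucida protein of the oocyte, had 0.923, 5.67 and 2.20 CPM in the *Ehmt2* knockouts and no count in the 3 *Ezh2* knockouts. Its difference of 9.22, loose in size because of the group without counts, did not pass with edgeR (adjusted p = 0.248). DESeq2 called it (adjusted p = 0.0257). Of 17 tested meiosis genes, 0 were called for the difference with edgeR, while DESeq2 called 1. Without adjustment 2 had a higher difference, against 1.79% of all genes.

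X-linked Mage and Rhox genes had the highest median differences of the lists described, 4.30 and 2.18. Mage genes encode cancer and testis antigens and their relatives. Among 13 tested X-linked ones (19 with a listed transcript) the median *Ehmt2* effect was 5.36 and the median *Ezh2* effect 0. Of the 13, 5 were called higher for the *Ehmt2* effect, against 0.645% of all genes. *Magea8* had 23.4, 23.9 and 20.8 CPM in the *Ehmt2* knockouts, no more than 0.188 CPM in their controls, and 0 in all 6 *Ezh2* libraries. *Magea5*, *Magea10* and *Magea2* had the same pattern, and 4 of the 5 called Mage genes had no count in the *Ezh2* cross. The low-count filter works by group, so these genes passed it through the *Ehmt2* knockouts alone. Such members raise the median *Ehmt2* effect of a mostly silent list. The medians of the Mage list are therefore a description only, and the same holds for the Rhox list. The joint model gives such a gene a p of 1 for the difference whatever its *Ehmt2* effect, which concerned 9 of the genes tested and 6 of the 97 called higher without G9a. *Mageb16* had counts in both crosses, 54.8, 13.3 and 17.8 CPM against 0.376, 1.63 and 0.811 CPM in the *Ehmt2* cross and 15.3, 7.27 and 16.4 CPM against 2.13, 8.39 and 4.89 CPM in the *Ezh2* cross. Its difference was 3.56 (SE 0.90, edgeR adjusted p = 0.202), which DESeq2 called (adjusted p = 0.0046).

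Of the Rhox homeobox cluster, expressed in placenta and gonads, 6 of 26 genes passed the filter, and all 6 had positive effects in both crosses, with medians of 4.25 and 1.86. Over all genes 49.4% had a positive *Ehmt2* and 51.2% a positive *Ezh2* effect. *Rhox5* went from 9.46, 13 and 3.99 CPM to 511, 154 and 177 CPM without G9a and from 2.49, 47.7 and 1.80 CPM to 101, 33.7 and 44.1 CPM without EZH2. Its groups overlapped in the *Ezh2* cross, where control 2 reached the level of the knockouts, and the difference of 3.20 did not pass (edgeR adjusted p = 0.464, interval 0.48 to 5.91). Without that control it was 0.18, and without both libraries rich in visceral endoderm 0.79. With Y-matched controls, where control 2 is the only *Ezh2* control, it was 5.06. Of 9 tested Xlr genes, a multicopy X-linked family, 9 had a positive *Ezh2* effect and 8 a positive *Ehmt2* effect. For the difference 0 were called with edgeR or DESeq2. Without adjustment 5 of the 9 had an *Ezh2* effect above the fold threshold, against 2.03% of all genes. Mage, Rhox and Xlr genes have close copies, so single members are uncertain. Of the 97 genes called higher for the *Ehmt2* effect 17.5% were X-linked, as were 7.21% of the 305 higher for the *Ezh2* effect without adjustment and 3.94% of all genes tested.

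Genes of the p53 pathway and cell cycle inhibitors were read as 1 list. It also holds D-type cyclins, which promote the cell cycle, so its medians do not measure growth arrest. Of 23 tested members, 3 were called higher for the *Ehmt2* effect with edgeR, against 0.645% of all genes. For the *Ezh2* effect and for the difference 0 were called. DESeq2 called 1 higher and 1 lower for the difference. Without adjustment 3 were higher and 1 lower, against 1.79% and 2.71% of all genes. The median effects were 0.59 for *Ehmt2* and 0.08 for *Ezh2*. *Cdkn1a*, which encodes the cyclin-dependent kinase inhibitor p21 (chr17:29090976-29100727), had 10.7, 4.82 and 15.9 CPM in the *Ehmt2* controls and 63.5, 101 and 58.3 CPM in the knockouts. In the *Ezh2* cross it had 28.9, 9.62 and 20.7 CPM in controls and 23.9, 15.1 and 24.2 CPM in knockouts, so these groups overlapped. The difference was 2.74 (SE 0.60, interval 1.46 to 4.02) with an edgeR adjusted p of 0.151, and DESeq2 called it (adjusted p = 0.00047). With Y-matched controls the difference was 1.36, and with the Y-linked level as a covariate 1.34. *Trp53* itself had a difference of −0.15. *Ccnd2*, a D-type cyclin and the member with the largest difference in the reverse direction, was picked after its values were seen. Its levels were 28.7, 26.3 and 8.64 CPM against 125, 102 and 92.1 CPM in *Ezh2* controls and knockouts, and 11.2 to 31.8 CPM against 6.46 to 12.4 CPM in the *Ehmt2* cross (difference −3.35, edgeR adjusted p = 0.0555).

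*Cd3e*, a T cell receptor subunit, had 16.0, 30.4 and 16.8 CPM in the *Ehmt2* knockouts and at most 1.39 CPM in the other 9 libraries, with a difference of 4.98 (SE 1.54, edgeR adjusted p = 0.32) that became −0.50 with Y-matched controls, where the *Ezh2* control left is at 0. *Foxj1*, a regulator of ciliogenesis, was at 5.89 to 7.17 CPM in the *Ehmt2* and 3.50 to 8.25 CPM in the *Ezh2* knockouts, with a difference of 0.55 (interval −1.36 to 2.46). *Casp14*, a caspase of epidermal differentiation, had 0.639, 4.00 and 2.91 CPM in the *Ehmt2* knockouts and no count in the *Ezh2* cross, but did not pass the filter.

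Among the lists described, the lowest median difference was that of primitive streak and Wnt genes, which mark the onset of gastrulation. Of its 19 tested members (23 with a listed transcript), 1 had a difference above 0, where 7524 of 15034 did over all genes, and 1 was called, *Nkx1-2*. The median *Ehmt2* effect was −1.05 and the median *Ezh2* effect 0.51. Alternative fits moved this pattern in both directions. The mean level of the list, as log2(CPM + 0.5), was 3.38 and 2.82 in both controls with Y-linked transcripts and 2.38 to 3.19 in the *Ezh2* knockouts, against 1.13 to 2.06 in the 7 libraries without them. With the Y-linked level as a covariate 10 of the 19 members had a difference above 0, with a median of 0.26, and with Y-matched controls 8 of 19 did, with a median of −0.34, against −0.99 over all 12 libraries. Without both libraries rich in visceral endoderm 3 of 19 were above 0, with a median of −1.92, and with the extraembryonic ectoderm covariate 0 of 19, with a median of −1.20. *Mixl1*, a homeobox gene of the streak, had 122 CPM in *Ehmt2* control 2 against 4.76 and 4.33 CPM in the other controls and 2.34 to 2.98 CPM in the knockouts. *Lef1*, a Wnt effector, had 80.3 to 115 CPM in the *Ehmt2* controls and 36.1 to 64.1 CPM in the knockouts, and 73.1 to 81.4 and 69.0 to 92.7 CPM in *Ezh2* controls and knockouts (difference −1.03, edgeR adjusted p = 0.271).

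Developmental transcription factors are a class well known as targets of Polycomb. Of 46 tested members (102 listed), 7 had an *Ezh2* effect above the fold threshold without adjustment, against 2.03% of all genes. For the *Ehmt2* effect 1 was called higher, against 0.645% of all genes, and the median effects were 0.69 for *Ehmt2* and 0.66 for *Ezh2*. For the difference 2 members were higher and 7 lower without adjustment, against 1.79% and 2.71% of all genes, and *Nkx1-2* was called. Of the 37 Hox genes with a listed transcript 12 were tested. Without adjustment 4 were higher and 0 lower in the *Ezh2* effect, against 2.03% and 0.525% of all genes. Their median *Ezh2* effect was 0.74, and 0.0068 without both libraries rich in visceral endoderm. A lower difference without adjustment was seen in 2, against 2.71% of all genes. *Hoxd13* had 8.17, 4.51 and 8.44 CPM in the *Ezh2* knockouts against 0.360 to 1.81 CPM in their controls, and 0.0647 to 1.31 CPM against 0.0627 to 2.43 CPM in the *Ehmt2* cross, with a difference of −3.05 (SE 1.41, edgeR adjusted p = 0.535). *Hoxc10*, which did not pass the filter, was at 0 to 0.0710 CPM in all libraries other than *Ezh2* knockouts 1 and 2, at 2.00 and 0.135 CPM. *Lefty2*, an inhibitor of Nodal signalling, had 7.39, 4.48 and 8.71 CPM in the *Ezh2* controls and 21.0, 32.2 and 28 CPM in the knockouts, against 5.33, 13.2 and 4.67 CPM and 5.96, 13.2 and 5.11 CPM in the *Ehmt2* cross. The difference of −1.92 (SE 0.64) did not pass (edgeR adjusted p = 0.368).

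Genes of pluripotency were read as naive, core and primed lists. Of 12 tested naive genes, 2 were called higher for the *Ehmt2* effect, against 0.645% of all genes. Without adjustment 3 had a higher and 1 a lower difference, against 1.79% and 2.71% of all genes, with 0 called by edgeR or DESeq2. Both genes called for the *Ehmt2* effect are also known from extraembryonic ectoderm or its stem cells. *Esrrb*, a nuclear receptor, had 100, 22.2 and 16.3 CPM in the *Ehmt2* knockouts and 0.752 to 1.42 CPM in the controls, and 5.78, 1.48 and 1.18 CPM against 0.213 to 0.362 CPM in the *Ezh2* cross. *Zfp42*, the zinc finger protein REX1, had 39.5, 6.83 and 11.6 CPM against 0.406 to 1.68 CPM in the *Ehmt2* cross, and 1.37 to 6.09 CPM against 1.44 to 2.34 CPM in the *Ezh2* cross (difference 3.26, edgeR adjusted p = 0.32). Of 8 core genes *Dppa4*, a chromatin-associated protein of pluripotent cells, was called for the *Ehmt2* effect, with 35.4, 20.8 and 18.3 CPM against 4.07 to 7.90 CPM, and had 7.07 to 19.6 CPM against 15 to 18.5 CPM in the *Ezh2* cross. Its difference of 2.33 was called by DESeq2 and missed the threshold with edgeR (adjusted p = 0.167).

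*Pou5f1*, *Nanog* and *Otx2*, transcription factors of the epiblast, had differences of −0.29 (interval −0.83 to 0.24), −0.14 (−0.81 to 0.52) and −0.18 (−0.64 to 0.28). *Nanog* had 51.5, 84.2 and 51.9 CPM against 48.9, 73.2 and 54.0 CPM in *Ehmt2* controls and knockouts, and 71.8 to 87.5 CPM against 70.8 to 104 CPM in the *Ezh2* cross. Of 11 primed epiblast genes 10 had a difference below 0, where 7524 of 15034 were above 0 over all genes. The medians were −0.50 for the *Ehmt2* and −0.10 for the *Ezh2* effect, with 0 called with edgeR or DESeq2. With the extraembryonic ectoderm level as a covariate 6 of the 11 differences were above 0, and the median *Ehmt2* effect was 0.14. *Fgf5*, a growth factor of the primed epiblast, had 402 to 504 CPM and 203 to 328 CPM in *Ehmt2* controls and knockouts, and 366 to 525 and 442 to 494 CPM in the *Ezh2* cross (difference −0.85, SE 0.23, edgeR adjusted p = 0.271). *Dnmt3b*, the de novo DNA methyltransferase, had a difference of −0.34 (interval −0.76 to 0.08). The other 15 H3K9 methylation genes, 10 PRC2 genes, 22 PRC1 genes, 8 DNA methylation genes and 10 demethylase genes tested held no call for the difference with edgeR, also none past the fold threshold at an unadjusted p under 0.05. Among metabolic genes, 16 glycolysis genes had medians of −0.39 and −0.31, and *Ldha*, lactate dehydrogenase, had 2197 to 2942 CPM in the *Ehmt2* controls and 1617 to 1720 CPM in the knockouts, with a difference of −0.60 (edgeR adjusted p = 0.214).

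**Figure D5:**
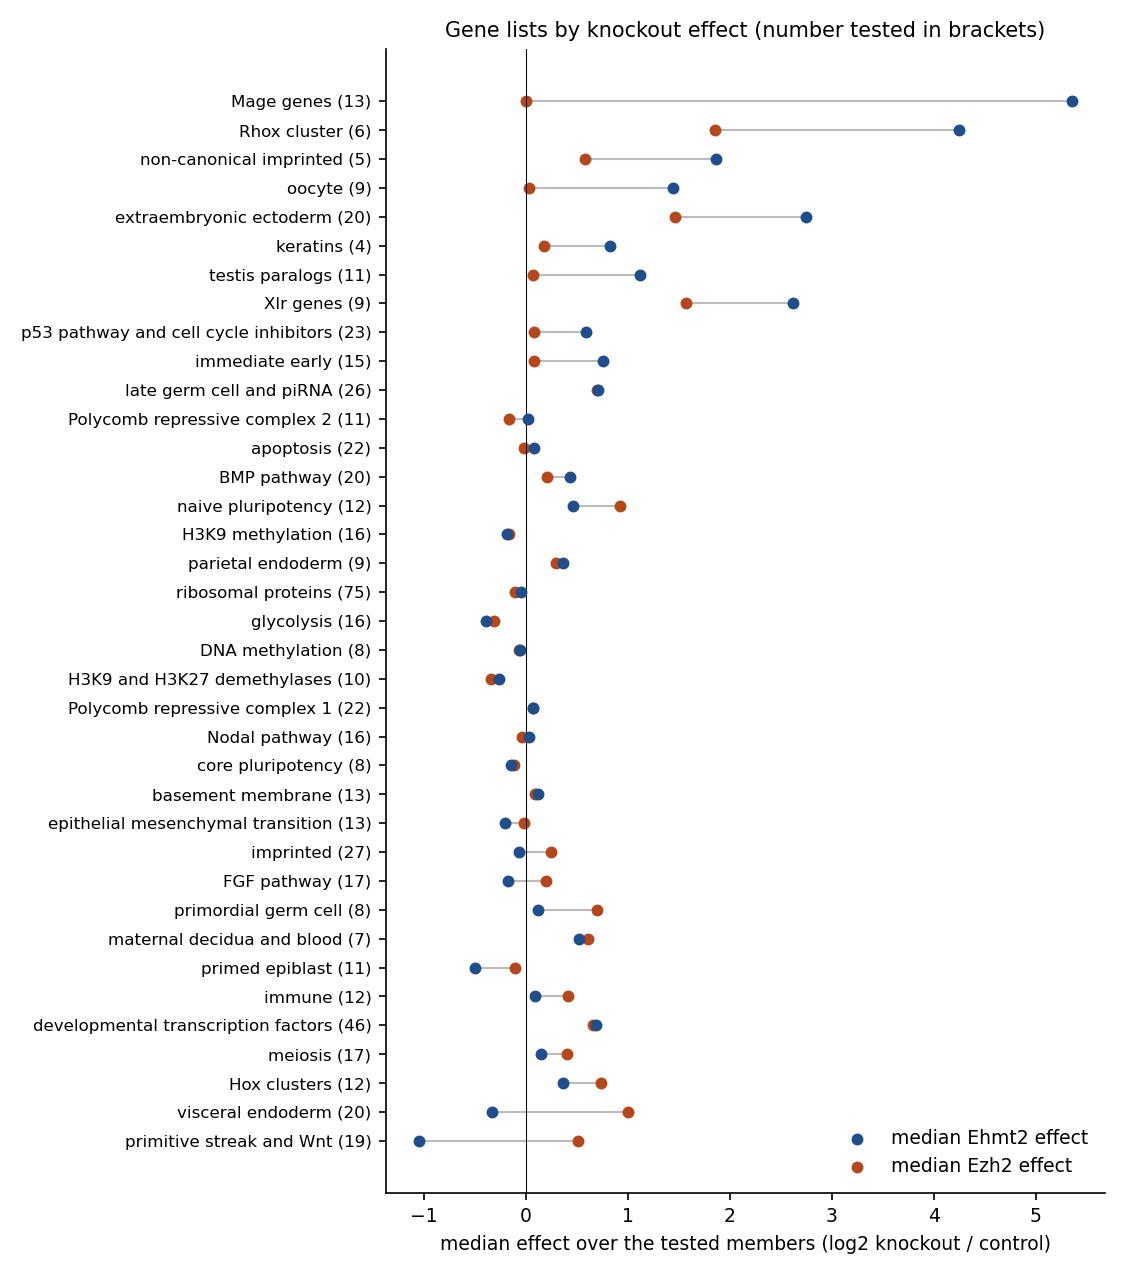
Median *Ehmt2* effect (blue) and median *Ezh2* effect (orange), log2 knockout over control, over the tested members of each gene list, ordered by the median difference, with the number of members in brackets. X-linked Mage and Rhox genes lie at the top with *Ehmt2* medians of 5.36 and 4.25, and the primitive streak and Wnt list at the bottom with medians of −1.05 and 0.51.

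Extraembryonic ectoderm genes had mostly positive effects in both crosses. Of 20 tested, 18 had a positive *Ehmt2* and 19 a positive *Ezh2* effect, against 49.4% and 51.2% of all genes, with medians of 2.75 and 1.47. For the *Ehmt2* effect 6 were called higher, against 0.645% of all genes, and for the difference 0 with edgeR or DESeq2. Without adjustment 5 had a higher difference, against 1.79% of all genes. Among the *Ehmt2* knockouts, number 1 had the highest levels. *Elf5*, which specifies trophoblast, had 151, 14.7 and 30.5 CPM in the *Ehmt2* knockouts and 7.25, 0.471 and 0.262 CPM in the *Ezh2* knockouts, against 0.142 to 1.35 CPM in the 6 controls. *Bmp4*, the signal from extraembryonic ectoderm to epiblast, had 114, 29.9 and 30.0 CPM and 22, 8.41 and 12.4 CPM in *Ehmt2* and *Ezh2* knockouts, against 3.17 to 6.40 CPM in controls. In bulk samples, more cells of a type and more RNA per cell cannot be told apart.

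Non-canonical imprinted genes, whose imprint depends on maternal H3K27me3 and which are expressed in extraembryonic ectoderm, gave 5 of 5 positive effects in both crosses. Over all genes 49.4% of *Ehmt2* and 51.2% of *Ezh2* effects were positive. The medians were 1.87 for *Ehmt2* and 0.58 for *Ezh2*. For the *Ehmt2* effect 3 were called higher, against 0.645% of all genes. *Sfmbt2*, a Polycomb-group gene, had 14.9, 16.0 and 9.60 CPM in the *Ehmt2* controls and 987, 137 and 191 CPM in the knockouts, and 9.45, 22 and 1.80 CPM against 136, 141 and 81.6 CPM in the *Ezh2* cross. The knockouts lay above the controls in both, and the difference of 1.59 had an interval from −0.55 to 3.72 (edgeR adjusted p = 0.698). With the extraembryonic ectoderm level as a covariate it was −0.12. *Jade1*, a chromatin reader of the same list, had 222 to 356 CPM in the *Ehmt2* knockouts against 141 to 188 CPM, and overlapping groups in the *Ezh2* cross (difference 0.65, edgeR adjusted p = 0.455). Visceral endoderm genes had a median difference of −0.84, which became −0.26 without both libraries rich in them. With Y-matched controls it was 0.72, but the only *Ezh2* control of that fit, control 2, is among those rich libraries. The median *Ezh2* effect of these genes was 1.00 over all 12 libraries and −0.47 in that fit.

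Genes changed in both crosses were sought at an unadjusted p under 0.05 and an effect beyond 1.4 in each, since 0 genes passed the adjusted threshold in both with edgeR. There were 73 with the same sign, 67 of them higher and 6 lower in both knockouts, and 28 with opposite signs. Of the 73, 0 were called for the difference with edgeR and 9 had an unadjusted p of the difference under 0.05. Those with the largest shared effects were mostly near the limit of detection. Of the 20 genes named by the rule from both classes, 18 had a group with at most 3 counts in each library, so no fold is given for these. Among the shared ones, *Cdx2*, a trophoblast and caudal transcription factor, had 16.2, 3.41 and 2.91 CPM in the *Ehmt2* and 1.93, 4.85 and 0.0655 CPM in the *Ezh2* knockouts, against 0 to 1.08 CPM in the controls. *Rhox6* had 4.97, 1.82 and 2.07 CPM and 2.85, 2.36 and 0 CPM, and *Xlr5c* 1.77, 2.69 and 1.29 CPM and 0.694, 0.135 and 0.0655 CPM, in the same order. Of the 67 genes higher in both, 6 are on the extraembryonic ectoderm list, which holds 20 of the 15034 genes tested. That list shares *Rhox6* and *Rhox9* with the Rhox cluster and *Esrrb* with the naive list, so these lists are not separate.

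Opposite signs were seen for 10 genes higher and 18 lower without G9a, and 4 of these 28, namely *Nkx1-2*, *Ildr2*, *H2-Q5* and *1700029P11Rik*, were called for the difference. *Gm5128*, an X-linked gene, had 16.6, 5.59 and 3.82 CPM in the *Ehmt2* knockouts and no count in their controls, with no more than 2.30 CPM in the *Ezh2* cross. *Dlk1*, an imprinted Notch-like ligand, had 1.85, 2.22 and 0.655 CPM in the *Ezh2* knockouts and 0 to 1.30 CPM in the other libraries. *Nlrp6*, an inflammasome sensor, had 3.16, 0.875 and 1.05 CPM in the *Ezh2* knockouts, had no count in their controls and lay at 0 to 1.01 CPM in the *Ehmt2* cross. *Amer2*, a regulator of Wnt signalling, had 0.848, 1.08 and 0.916 CPM in the *Ezh2* knockouts against 0.0710 to 0.0723 CPM in their controls, and 0.0710 to 0.145 CPM against 0.270 to 0.976 CPM in the *Ehmt2* cross.

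The calls of one cross were finally read in the other. The crosses share no library, but both effects came from the joint fit. Its filter, scaling and spread were taken from all 12 libraries, so the calls were not independent of the cross they were read in. Of the genes called higher without G9a, 6 had no count in the *Ezh2* libraries, so shares over all genes are a description only. The 97 genes called higher without G9a had a median *Ehmt2* effect of 3.66, which chose them, and a median *Ezh2* effect of 0.81 against 0.01 over all genes. The *Ezh2* effect was above 0 in 75 of them (77.3%), against 51.2% of all genes, and beyond 1.4 with an unadjusted p under 0.05 in 22, against 2.03% of all. With Y-matched controls their median *Ezh2* effect was 0.72 and with the extraembryonic ectoderm level as a covariate 0.16, with 57 of 97 above 0. The 305 genes higher in the *Ezh2* effect without adjustment had a median *Ehmt2* effect of 0.46, above 0 in 188 (61.6%) against 49.4% of all. In neighbourhoods of the deleted genes, 309 genes were tested within 10 Mb of *Ehmt2* and 114 within 10 Mb of *Ezh2*. Of the former, *H2-Q5* was called for the difference and *Cdkn1a*, 5.81 Mb away, for the *Ehmt2* effect, and of the latter none was called for either, with edgeR. The median differences of these neighbourhoods were −0.13 and −0.11.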

How the data were processed

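RNA-seq counts of 12 single epiblasts, 3 controls and 3 knockouts in each of 2 crosses, were analysed. The authors deposited counts per Ensembl transcript, not normalised, from reads that TopHat2 had placed on GRCm38 and HTSeq-count had tallied. Transcripts without a read are missing from a file and were set to 0. Whether counting used strand is not given in the sources used here, so overlapping genes cannot be told apart. Of 72214 listed transcripts 96.6% matched GENCODE vM21 by identifier, and the transcript with the highest mean count stood for each gene.

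Genes were filtered with edgeR's filterByExpr by group, scaled with TMM and fitted in one model of 4 groups with glmQLFit. The *Ehmt2* effect, the *Ezh2* effect, their difference and the difference between controls were tested with glmQLFTest, two-sided, with Benjamini-Hochberg adjustment over 15034 genes. A gene was called at an adjusted p under 0.05 and a log2 value beyond 1.4. SE is the log2 value divided by the square root of F. The study states as many litters as control and knockout pairs in each cross, but not which library came from which litter. The code was tested on simulated data. Gene lists are described by counts and medians without a test.

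The members, the gene lists and the rule for named genes were chosen with earlier results of these data known. The rule named the deleted genes, up to 12 called genes per direction with no overlap in the cross of larger effect, up to 4 called members per list or else the 2 with the highest mean count, 13 genes the study names, and up to 10 genes moved in both crosses in each sign class. Of the 14 genes called for the difference, 1 is counted but not reported here. Genes named beyond the rule were picked after their values were seen. Alternatives were DESeq2, RLE factors, no filter, every transcript, leaving out each library, a replicate block, *Ehmt2* replicate 4, each cross by itself, and covariates for extraembryonic ectoderm and Y-linked level. Controls of matching Y-linked state and leaving out libraries rich in visceral endoderm markers were chosen after seeing the data. Software was edgeR 4.0.16 and DESeq2 1.42.0 in R 4.3.3, with pandas 2.3.3 and matplotlib 3.10.9 in Python 3.11.15.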

Additional observations from a re-analysis of the deposited data

Results flagged for a closer look

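The knockout effects of 14 genes described here differed between the crosses by the test of the difference itself (edgeR adjusted p under 0.05). The *Ehmt2* effect was above the *Ezh2* effect by 9.02 on the log2 scale for *Asz1*, 4.49 for *Nlrp4c*, 4.49 for *1700029P11Rik*, 4.04 for *Rpl10l*, 3.57 for *Aim2*, 2.35 for *Ezh2* and 1.27 for *Cyp51*, the last under the fold threshold. The differences of the other direction were −5.66 for *Nkx1-2*, −5.19 for *Ildr2*, −3.91 for *H2-Q5*, −3.24 for *Cnksr2*, −3.19 for *Magel2*, −3.18 for *Ptprd* and −3.11 for *Crabp1*. Y-linked transcripts were present in all 3 *Ezh2* knockouts and in no *Ehmt2* knockout, and their part in these differences was not tested beyond the fits given above.

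*Ehmt2* knockout 4, a library outside the comparison, had levels above its control in 5 of these genes, with 17.6 CPM of *Asz1*, 36.2 CPM of *Nlrp4c*, 49.7 CPM of *Rpl10l*, 70.9 CPM of *Aim2* and 7.41 CPM of *1700029P11Rik*. It has Y-linked transcripts, as its control does.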

How the results depend on the processing

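The 14 called differences kept their sign under all 22 alternatives, and the number of calls varied. These genes were chosen for large differences in libraries that the alternatives mostly share, so the kept sign is no separate check. Genes called for the difference, higher and lower, were 14 and 15 without the low-count filter, 42 and 55 with DESeq2, 2 and 3 with a replicate block, 2 and 0 with the Y-linked level as a covariate, 3 and 0 with Y-matched controls, and 0 and 0 with the extraembryonic ectoderm covariate. Leaving out 1 library gave 0 to 5 higher and 0 to 7 lower, with 0 and 0 without *Ezh2* knockout 2. For the *Ehmt2* effect they were 169 and 25 without the filter, 234 and 55 with DESeq2, 37 and 7 with Y-matched controls, 0 and 0 with the extraembryonic covariate, 189 higher in its own cross and 26 lower with replicate 4, and 25 to 117 higher and 2 to 23 lower when 1 library was left out. For the *Ezh2* effect 4 were higher without the filter, 41 with DESeq2, and 1 each with the block, the Y-linked covariate, Y-matched controls and every transcript. Lower ones were 5 with DESeq2, 2 with Y-matched controls and 0 in its own cross. Leaving out 1 library gave 0 to 4 higher and 1 to 2 lower. The cause of these shifts was not tested.

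Same-numbered control and knockout libraries had deviations correlated at 0.003, 0.002 and 0.031 in the *Ehmt2* and 0.048, −0.164 and 0.206 in the *Ezh2* cross. These values show no common pairing by number. They cannot tell whether libraries shared a litter, so pairing stays unknown. With the replicate block the calls were 2 higher and 3 lower, 4 of them among the 14, and not every library correlated best with its own number.

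Differences that were not called changed sign in a few fits. With the extraembryonic covariate *Dnmt3b* was 0.060, *Sfmbt2* −0.12, *Otx2* 0.26 and *Pou5f1* 0.053. With the Y-linked covariate *Nanog* was 0.38, *Xlr5c* −1.03 and *Cdx2* 2.02. With Y-matched controls *Nanog* was 0.27 and *Cd3e* −0.50. Without the libraries rich in visceral endoderm *Foxj1* was −0.17 and *Cdx2* 0.024. Leaving out 1 library gave −0.33 to 0.13 for *Nanog*, −0.46 to 1.14 for *Foxj1* and −4.02 to 1.67 for *Cdx2*.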
